A study of Mus musculus with 19 samples.

Results

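The skin of syngeneic mice given the anti-CX3CL1 mAb was set against that of syngeneic mice given control IgG, to see what neutralizing CX3CL1 did to skin without Scl-cGVHD. These 8 mice (5 given mAb and 3 given IgG) were taken by their labels from the 19 mice of the series, and the genes compared were the 16350 of 50686 that reached 1 TPM in at least 3 of the 19 mice. TPM is a transcript level corrected for gene length. All 8 were irradiated female BALB/c mice that had received T cell-depleted bone marrow and splenocytes of male BALB/c donors, so donor and host were of the same strain. Both groups therefore carried the irradiation and the transplantation. The mAb (clone 5H8-4, against mouse CX3CL1) or control IgG (against dinitrophenol) was injected into the peritoneum repeatedly before the skin was taken 42 days after BMT. The dose of the mAb in syngeneic mice was not in the labels. Each library came from 1 numbered mouse: ID_1530, ID_1531, ID_1532, ID_1533 and ID_1534 had the mAb, and ID_1527, ID_1528 and ID_1529 had IgG.

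CX3CL1, or fractalkine, is a chemokine anchored in the membrane of endothelial and epithelial cells and shed from it by proteases. Its receptor CX3CR1 is carried by monocytes, macrophages and some T and NK cells, which adhere to the anchored form and migrate toward the shed one. Mouse back skin also has its own clock. Hair follicles pass through growth (anagen), regression (catagen) and rest (telogen), and in growth the follicle builds a hair shaft of hair keratins and keratin-associated proteins inside an inner root sheath with keratins of its own.

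The 8 skins differed far more in their hair genes than between the treatments. No gene passed the test between mAb and IgG, and the mAb mice stood at both ends of the range of inner root sheath transcripts, with the 3 IgG mice between them. Mice ID_1533 and ID_1534 held hair keratins and keratin-associated proteins at high levels, while mice ID_1530, ID_1531 and ID_1532 held almost none. Transcripts of CX3CL1 and CX3CR1 were at like levels in both groups.

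Library depth is not given, because the values are TPM and the deposited read numbers name no mouse, so the error of a value was taken from the spread between mice. The skin had its epidermal genes in all mice, at a mean log2(TPM + 1) over 21 genes of 7.42 to 7.78 with mAb and 7.54 to 7.70 with IgG. It also held muscle, whose 20 listed genes took 0.879% to 3.88% of all TPM with mAb and 2.52% to 4.23% with IgG. Transcripts of Eif2s3y, a translation factor gene of the Y chromosome, marked cells of the male donors in the female hosts. These transcripts were at 1.67 to 3.22 TPM with mAb and 2.59 to 2.83 TPM with IgG. Those of Ddx3y, an RNA helicase gene of the same chromosome, were at 0.74 to 1.53 TPM and 0.85 to 1.32 TPM in the same order. Uty and Kdm5d, the other genes written in the Y-linked list, did not pass the filter. Mice ID_1533 and ID_1534 stood apart from the other mAb mice, and the results that rest on them are given with and without them. In bulk skin, fewer cells of a type and less RNA per cell cannot be told apart.

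The promoters of the hair genes are shown first, because many of the genes that most set the mice apart are hair genes. They are the 250 bases before the RefSeq start site on GRCm38.p6, in the direction of the gene, all from the minus strand. Capitals mark CTTTGAAG, a core bound by the LEF1/TCF factors of Wnt signalling, and TATAAA, the TATA box (for each, either strand). The first 3 belong to hair shaft keratins of chromosome 11 (Krt31 at chr11:100050552-100050801, Krt33b at chr11:100029869-100030118, Krt34 at chr11:100041555-100041804), the next 2 to keratin-associated proteins of chromosome 16 (Krtap16-3 at chr16:88962874-88963123, Krtap19-3 at chr16:88878039-88878288), and the last 2 to inner root sheath keratins (Krt25 at chr11:99322952-99323201, Krt71 at chr15:101743098-101743347).
Krt31: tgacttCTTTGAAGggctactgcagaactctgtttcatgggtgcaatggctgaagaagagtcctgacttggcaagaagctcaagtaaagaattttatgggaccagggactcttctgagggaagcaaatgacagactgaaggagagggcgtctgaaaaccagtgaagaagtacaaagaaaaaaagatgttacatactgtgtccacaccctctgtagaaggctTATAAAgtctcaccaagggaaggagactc
Krt33b: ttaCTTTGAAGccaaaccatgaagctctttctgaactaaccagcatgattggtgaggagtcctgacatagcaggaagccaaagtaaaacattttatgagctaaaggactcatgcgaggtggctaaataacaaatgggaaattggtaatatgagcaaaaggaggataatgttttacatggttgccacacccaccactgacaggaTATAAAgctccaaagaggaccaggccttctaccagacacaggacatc
Krt34: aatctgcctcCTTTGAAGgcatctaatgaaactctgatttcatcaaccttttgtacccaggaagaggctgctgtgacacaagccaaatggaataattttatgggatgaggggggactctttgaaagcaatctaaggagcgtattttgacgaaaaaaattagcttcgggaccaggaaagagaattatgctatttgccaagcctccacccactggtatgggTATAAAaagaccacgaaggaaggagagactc
Krtap16-3: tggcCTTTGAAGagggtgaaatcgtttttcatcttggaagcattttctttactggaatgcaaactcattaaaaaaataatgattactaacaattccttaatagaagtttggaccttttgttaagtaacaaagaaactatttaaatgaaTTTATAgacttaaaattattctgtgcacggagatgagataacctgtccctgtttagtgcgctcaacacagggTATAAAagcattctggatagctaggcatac
Krtap19-3: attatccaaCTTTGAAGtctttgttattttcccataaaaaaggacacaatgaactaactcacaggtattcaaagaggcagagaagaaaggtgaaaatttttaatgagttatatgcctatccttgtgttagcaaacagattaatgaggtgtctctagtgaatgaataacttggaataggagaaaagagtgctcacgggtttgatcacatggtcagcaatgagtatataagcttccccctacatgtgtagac
Krt25: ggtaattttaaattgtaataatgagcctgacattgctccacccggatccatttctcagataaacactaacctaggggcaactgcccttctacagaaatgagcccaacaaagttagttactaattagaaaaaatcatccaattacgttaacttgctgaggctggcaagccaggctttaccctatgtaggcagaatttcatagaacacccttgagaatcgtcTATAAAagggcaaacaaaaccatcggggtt
Krt71: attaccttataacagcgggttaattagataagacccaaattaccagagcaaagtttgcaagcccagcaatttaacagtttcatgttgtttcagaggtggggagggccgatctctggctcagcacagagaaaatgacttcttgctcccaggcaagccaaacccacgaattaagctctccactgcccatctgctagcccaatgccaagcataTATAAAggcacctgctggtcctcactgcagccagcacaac

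These 7 were chosen with their values and motifs known, so what they share is no result. CTTTGAAG was in the 5 shown for shaft and keratin-associated genes and was not found in those of Krt25 and Krt71. Over the lists, 4 of 6 hair shaft keratins with a promoter in the RefSeq table had it (66.7%), as did 6 of 51 keratin-associated proteins (11.8%) and 0 of 7 inner root sheath keratins, against 1.68% of the 27025 genes with a promoter. TATAAA was in 4 of the 6 shaft keratins, 41 of the 51 keratin-associated proteins (80.4%) and all 7 inner root sheath keratins, against 14.3% of all genes. The letters describe the windows only.

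The hair cycle state of each mouse was read from transcripts alone. Krt71 (chromosome 15, 101733950 to 101743109), a type II keratin of the inner root sheath, was at 0.15, 0.40, 0.16, 5493 and 3823 TPM in mAb mice ID_1530, ID_1531, ID_1532, ID_1533 and ID_1534, against 19.6, 850 and 128 TPM in IgG mice ID_1527, ID_1528 and ID_1529. Krt25 (chromosome 11, 99315516 to 99322951), a type I keratin of the same sheath, was at 0, 0.03, 0.03, 3645 and 2455 TPM in the mAb mice, against 16.9, 629 and 89.0 TPM in the IgG mice. Thus in both genes the lowest 3 and the highest 2 of the 8 mice had the mAb, and the IgG mice lay between. Krt27, the third of these sheath keratins, had the same order, at 0.21, 0.21, 0.08, 3586 and 2334 TPM against 10.5, 464 and 67.7 TPM. Tchh, trichohyalin, which hardens the sheath, was at 0.94, 1.31, 1.08, 3031 and 1140 TPM with mAb, against 4.95, 309 and 41.3 TPM with IgG.

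The hair shaft followed the sheath. Krt86, a type II hair shaft keratin, was at 0, 0, 0.06, 984 and 506 TPM in the mAb mice, against 0.18, 36.3 and 9.63 TPM in the IgG mice. Krt31, a type I shaft keratin whose promoter is shown above, was at 0.04, 0.04, 0.19, 528 and 307 TPM with mAb, against 0.35, 31.1 and 6.39 TPM with IgG. Its neighbours Krt33b (0, 0, 0, 412 and 279 TPM against 0.20, 20.1 and 6.75 TPM) and Krt34 (0, 0, 0.04, 757 and 416 TPM against 0.04, 27.3 and 7.17 TPM) were likewise highest in ID_1533 and ID_1534, with ID_1528 next. The keratin-associated proteins, which crosslink the shaft keratins, spread still wider. Krtap16-3 was listed at 0 in mAb mice ID_1530, ID_1531 and ID_1532 and at 1470 and 578 TPM in ID_1533 and ID_1534, against 0, 23.6 and 3.97 TPM with IgG. Krtap19-3 was at 0, 0, 0.16, 1573 and 697 TPM with mAb, against 0, 24.5 and 2.27 TPM with IgG. Of 58 keratin-associated protein genes in the table, 51 to 54 were listed at 0 in mice ID_1530, ID_1531 and ID_1532, and 0 and 1 in mice ID_1533 and ID_1534, against 34, 4 and 11 in the 3 IgG mice. Not every hair gene was silent in the low mice: Krt32, a keratin of the hair cuticle, was at 9.24, 9.46, 10.9, 125 and 109 TPM with mAb, against 10.7, 32.7 and 13.2 TPM with IgG.

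**Figure D1:**
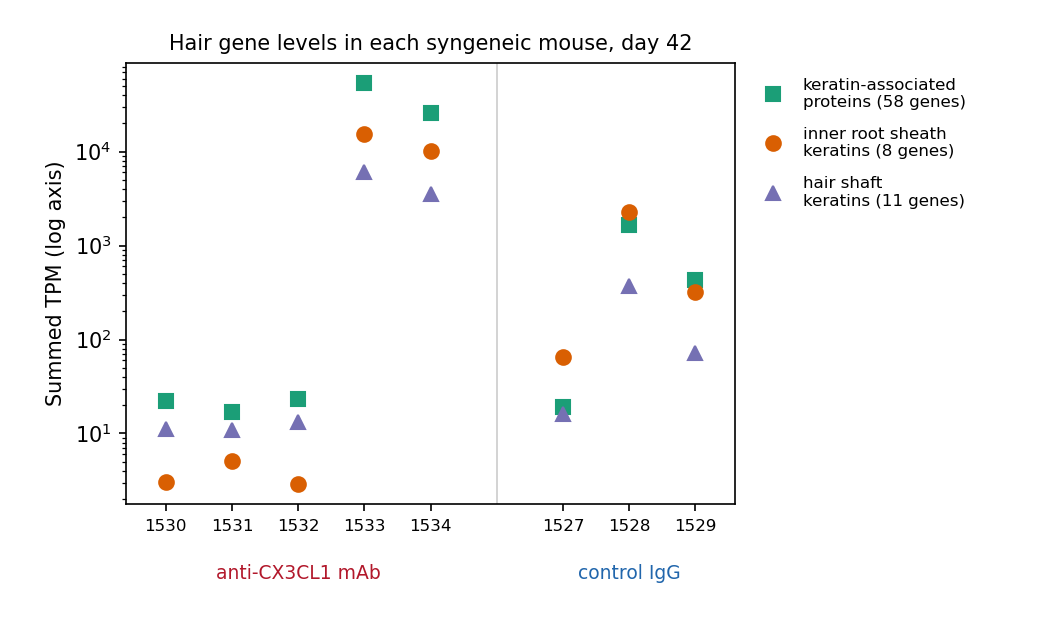
Summed TPM (log axis) of 8 inner root sheath keratins, 11 hair shaft keratins and 58 keratin-associated proteins in each syngeneic mouse, 1 point per mouse and gene group, with the 5 mAb mice on the left and the 3 IgG mice on the right (labels without the prefix ID_). Sheath keratins summed to 2.90 to 5.11 TPM in mAb mice ID_1530 to ID_1532 and to 15430 and 10170 TPM in mAb mice ID_1533 and ID_1534, against 65.5, 2302 and 317 TPM in the IgG mice.

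Together these 77 genes held 0.00363%, 0.00326%, 0.00393%, 7.51% and 3.92% of all TPM in the 5 mAb mice, against 0.0101%, 0.434% and 0.0818% in the 3 IgG mice. The make-up of the hair transcripts differed as well. The sum of shaft keratins over that of sheath keratins was 3.67, 2.11, 4.52, 0.389 and 0.347 with mAb, against 0.246, 0.160 and 0.227 with IgG. The sum of keratin-associated proteins over that of sheath keratins was 7.38, 3.28, 8.03, 3.48 and 2.51 with mAb, against 0.292, 0.726 and 1.35 with IgG. In both ratios the groups did not overlap. In mice ID_1530 to ID_1532 these ratios rest on sums of a few TPM, to which Krt32 and Krtap3-2 (15.9 to 22.4 TPM in these mice) gave most of the shaft and keratin-associated part. The ratios were chosen after their values were seen and were not tested.

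Some genes that drive hair growth told the IgG mice apart. Shh, the signal by which the growing hair matrix keeps its progenitors dividing, was at 0.04, 0.24, 0.24, 7.64 and 5.95 TPM with mAb, against 0.60, 6.42 and 0.19 TPM with IgG. IgG mouse ID_1528 was thus with mice ID_1533 and ID_1534, and IgG mouse ID_1529 with the low mice although it held sheath keratins such as Krt71. Mki67, a protein of dividing cells, was at 5.65, 6.30, 5.54, 26.1 and 20.4 TPM with mAb, against 6.67, 18.4 and 4.32 TPM with IgG. Over 28 cell cycle genes the mean log2(TPM + 1) was 2.66, 2.84, 2.76, 4.42 and 4.26 with mAb, against 2.91, 4.11 and 2.76 with IgG, so that 3 of the 8 mice stood high. Transcription factors of the hair matrix showed a smaller step in mouse ID_1528. Msx2 was at 2.65, 4.13, 2.45, 76.6 and 54.8 TPM with mAb, against 3.89, 22.2 and 3.42 TPM with IgG. Lef1, the Wnt factor whose core sequence is marked in the promoters, was at 2.58, 3.12, 2.12, 43.4 and 35.2 TPM with mAb, against 3.83, 14.5 and 4.15 TPM with IgG. Hoxc13, which activates hair keratin genes, was at 3.28, 6.63, 3.02, 75.6 and 51.7 TPM with mAb, against 4.66, 18.9 and 4.84 TPM with IgG. In each of these 3 genes the highest 2 mice had the mAb and mouse ID_1528 came next. The list of 28 growth genes averaged 2.77, 2.87, 2.77, 4.87 and 4.35 with mAb (log2(TPM + 1)). With IgG it averaged 2.88, 3.90 and 2.82. Not all its members rose with it. Igf1 was at 23.0 and 23.9 TPM in mice ID_1533 and ID_1534, against 33.0 to 40.65 TPM in the other mAb mice and 34.7 to 43.8 TPM with IgG. Fgf7 was also lowest in those 2 mice, at 6.55 and 5.71 TPM.

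Fgf18, a growth factor of the resting follicle that holds it at rest, ran the other way. It was at 23.1, 17.5, 20.98, 4.54 and 4.18 TPM with mAb, against 12.6, 9.85 and 14.7 TPM with IgG. Here too the IgG mice lay between. Krt15 (1163 to 2654 TPM with mAb, 2290 to 2624 TPM with IgG) and Cd34 (128 to 358 TPM with mAb, 260 to 308 TPM with IgG), markers of the follicle stem cells, were lowest in mice ID_1533 and ID_1534. Other stem cell genes of the same list ran the other way: Lhx2, a transcription factor of these cells, was at 19.4, 19.1, 22.8, 43.2 and 42.2 TPM with mAb, against 20.1, 32.6 and 18.6 TPM with IgG, and Lrig1 and Sox9 were highest in ID_1533 (52.0 and 40.5 TPM). The mean log2(TPM + 1) of the list of 19 resting and stem cell genes was 4.84 to 5.21 with mAb and 4.93 to 5.07 with IgG. Lgr5, carried by dividing progenitors, was highest in mice ID_1533 and ID_1534, at 16.7 and 9.56 TPM. Of pigment cell genes, Tyrp1 was at 4.29 to 10.1 TPM with mAb, against 7.98, 17.8 and 5.72 TPM with IgG, and Dct at 12.7 to 30.2 TPM with mAb, against 21.9, 44.4 and 17.6 TPM with IgG. Both pigment genes were highest in IgG mouse ID_1528, as was the mean of the list of 10 pigment cell genes (3.49 on log2(TPM + 1)). Mitf and Ednrb of that list were highest in mAb mouse ID_1533, at 15.5 and 22.1 TPM, against 8.23 and 18.9 TPM in ID_1528.

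None of these hair genes passed the test between the groups (limma on log2(TPM + 1) in the fit of all 19 mice, Benjamini-Hochberg over 16350 genes). The log2 fold change of Krt71, mAb over IgG, was -1.99 (SE 2.46) and that of Krt86 was 0.85 (SE 2.01). Of the hair shaft keratins 10 of 11 and of the keratin-associated proteins 24 of 24 had a log2 fold change above 0, with medians of 0.90 and 0.97, and the sheath list had 6 of 11 above 0 with a median of 0.28. These means rest on mice ID_1533 and ID_1534: without them the medians were -2.62 for shaft keratins, -2.60 for keratin-associated proteins and -3.38 for sheath genes. The median over all genes was -0.01.

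**Figure D2:**
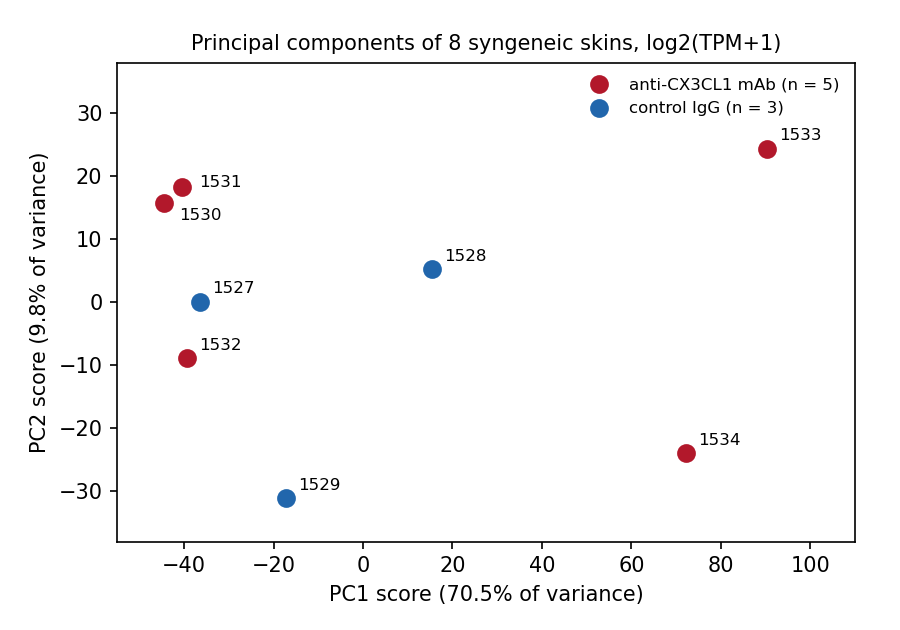
Scores of the 8 syngeneic mice on the first and second principal components of log2(TPM + 1) over 16350 genes, 1 point per mouse, with mAb in red and control IgG in blue. PC1, with 70.5% of the variance, runs from -44.4 to 90.2 in mAb mice and from -36.4 to 15.4 in IgG mice.

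A single axis, the first principal component, took up 70.5% of all variance between the 8 mice. Scores on it were -44.4, -40.4, -39.3, 90.2 and 72.2 for mAb mice ID_1530 to ID_1534, against -36.4, 15.4 and -17.2 for IgG mice ID_1527 to ID_1529. The 3 IgG mice again lay between both sets of mAb mice, and 37 of the 50 genes with the largest loadings had a keratin or keratin-associated symbol. The median SD of a gene over the mice was 0.29 (log2 scale) with mAb, against 0.19 with IgG, and was 0.16 in mAb mice without ID_1533 and ID_1534.

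The CX3CL1 axis was near equal in both groups. Cx3cl1 (ENSMUSG00000031778, chromosome 8, 94772009 to 94782427), the ligand that the mAb binds, was at 6.76, 7.43, 6.77, 6.73 and 6.09 TPM with mAb, against 5.19, 6.94 and 8.49 TPM with IgG. The mAb values lay within those of the IgG mice. Means were 6.76 ± 0.474 TPM with mAb and 6.87 ± 1.65 TPM with IgG (SD, n = 5 and 3), with a log2 fold change of 0.00 (-0.002011, 95% interval -0.56 to 0.55). Two-sided exact permutation over the 56 splits of the 8 mice gave p = 0.964, where the smallest p possible is 0.0357. The mAb neutralizes the protein, which was not measured here. Cx3cr1 (ENSMUSG00000052336, chromosome 9, 119901616 to 120069879), the receptor, was at 0.88, 1.19, 0.95, 1.16 and 0.94 TPM with mAb, against 0.92, 1.41 and 0.51 TPM with IgG, a log2 fold change of 0.08 (95% interval -0.36 to 0.52, exact permutation p = 0.571). The IgG mice spanned the mAb mice here as well. For comparison, Cx3cl1 in Scl-cGVHD skin was at 6.88 ± 2.28 TPM with mAb at 1 mg (SD, n = 5) and 4.77 ± 1.16 TPM with IgG (SD, n = 3), and Cx3cr1 was at 0.432 ± 0.219 TPM and 0.460 ± 0.282 TPM in the same order.

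The sheddases and other partners of CX3CL1 did not pass the test either. Adam10, the protease that sheds CX3CL1 at rest, was at 32.9, 33.0, 23.0, 35.4 and 24.7 TPM with mAb, against 27.7, 34.5 and 21.4 TPM with IgG. Adam17, which sheds it on stimulation, was at 23.1, 24.2, 19.8, 17.4 and 15.4 TPM with mAb, against 22.0, 21.4 and 16.7 TPM with IgG. Ctss, cathepsin S, which cuts it in the nervous system, was at 201, 226, 196, 142 and 195 TPM with mAb, against 182, 234 and 227 TPM with IgG. The groups overlapped in all 3. The integrins to which CX3CL1 can bind had log2 fold changes of 0.18 (Itgav), -0.08 (Itgb3), -0.06 (Itga4) and -0.11 (Itgb1). Over the 9 genes of the axis the exact permutation p was 0.214 or more, and 1 after adjustment over the 9, with 5 mice against 3. For all 9 the 95% interval of limma lay within 1 unit of log2(TPM + 1) in either direction, which held for 12671 of the 16350 genes. For low genes such as Cx3cr1 and Itga4 this is a wider limit than a 2-fold change in TPM.

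**Figure D3:**
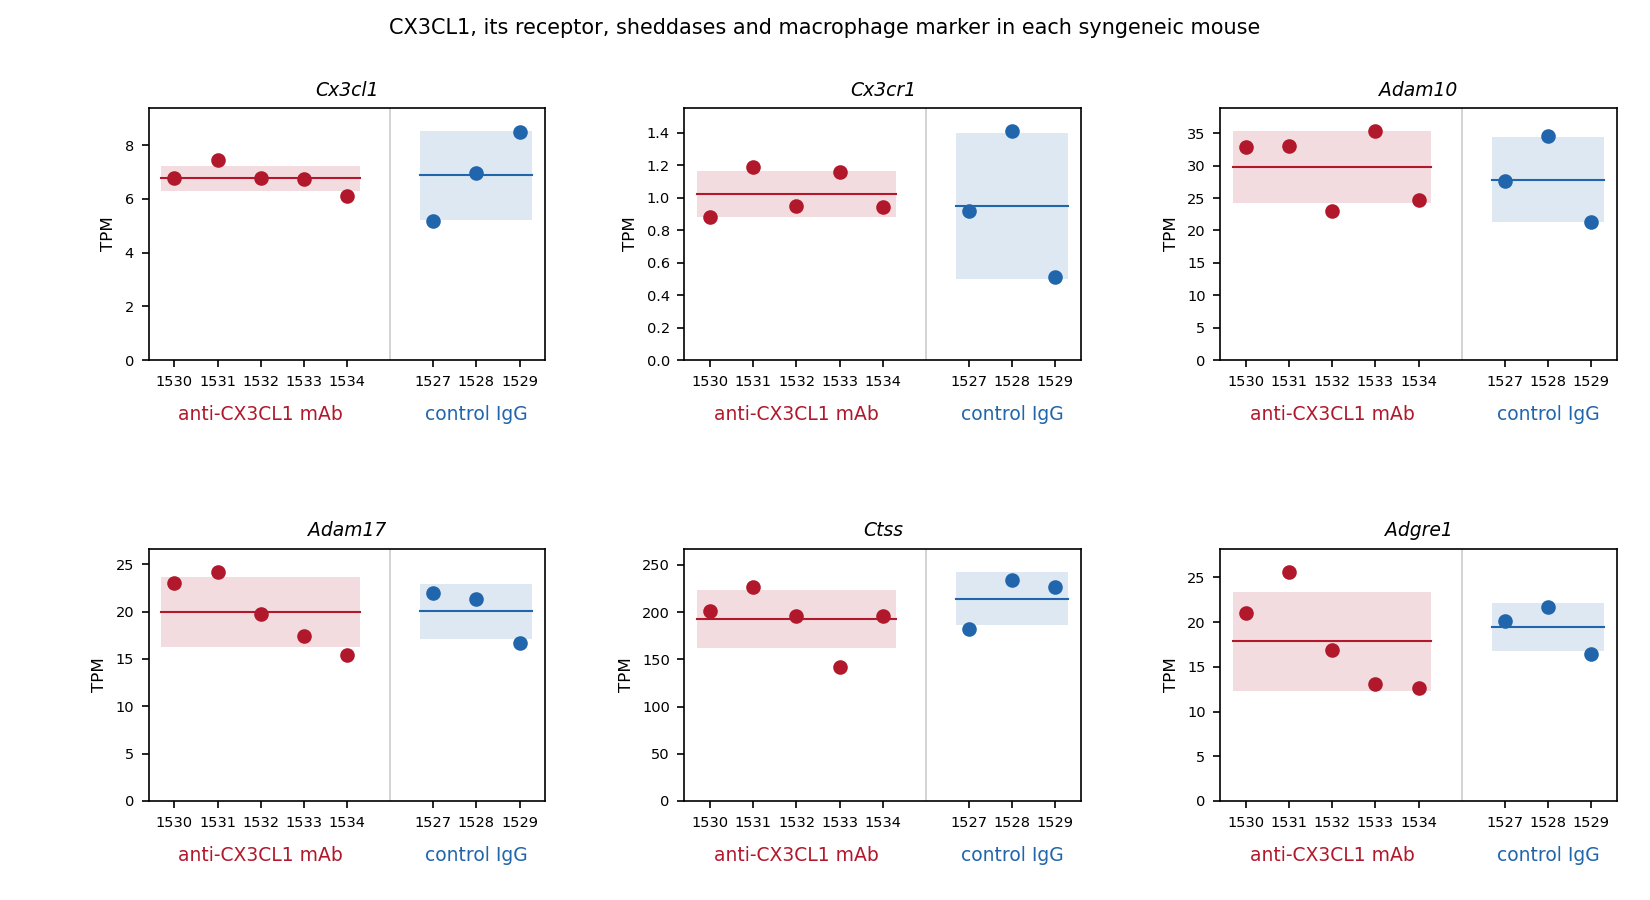
TPM of Cx3cl1, Cx3cr1, Adam10, Adam17, Ctss and the macrophage gene Adgre1 in each syngeneic mouse (points), with the group mean (line) and 1 SD on either side (shading), mAb on the left and control IgG on the right. The groups overlap in all 6 genes, and Cx3cl1 averaged 6.76 TPM with mAb and 6.87 TPM with IgG.

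Across all genes, 0 of 16350 passed an adjusted p of 0.05 (limma, 0.0%), 115 had an unadjusted p under 0.05 (0.703%: 48 higher, 0.294%, and 67 lower, 0.41%, with mAb), and the smallest adjusted p was 1. The share of 0.703% is below the 0.05 that such p values give on average where nothing differs. The 0 calls therefore do not show that the mAb changed nothing. The test of the difference between the response to 1 mg of mAb in Scl-cGVHD mice and that in syngeneic mice also called 0 of 16350 genes (0.0%), with 582 at an unadjusted p under 0.05. Where nothing differs, groups of 5 and 3 mice separate fully for a share of about 0.0357 of genes. Below that share, the groups did not overlap for 236 genes (1.44%), with 65 higher in every mAb mouse (0.398%) and 171 lower in every mAb mouse (1.05%). The genes named next were taken from these by their p and a mean of at least 5 TPM, so that their lack of overlap is the rule and no result.

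Among the 12 genes that stood higher in every mAb mouse by this rule, 3 had an unadjusted p under 0.05. Fam207a was at 21.9, 24.3, 22.9, 28.5 and 23.0 TPM with mAb, against 15.7, 21.4 and 17.5 TPM with IgG (log2 fold change 0.39, SE 0.15, limma adjusted p = 1). Hsd17b2, which inactivates oestradiol and testosterone, was at 8.25, 10.5, 5.86, 12.1 and 9.36 TPM with mAb, against 5.27, 5.67 and 5.82 TPM with IgG. The margin between the groups was narrow in both genes. Pla2g4b, a cytosolic phospholipase, was at 2.29, 2.5, 1.88, 19.1 and 10.9 TPM with mAb, against 0.61, 1.5 and 1.36 TPM with IgG, and was highest in mice ID_1533 and ID_1534. Among the other 9 were Acp7 (an acid phosphatase), Vasn (which binds TGF-beta), Hsbp1l1, Lypd5, Arhgef4, Slc15a1 (a peptide transporter), Gpsm1 (a regulator of G proteins) and Slc35b3 (a sulphate donor transporter of the Golgi), with log2 fold changes of 0.21 to 0.84.

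All 12 genes that stood lower in every mAb mouse by the same rule had an unadjusted p under 0.05. Endog, a mitochondrial endonuclease, was at 18.1, 20.86, 19.8, 11.4 and 15.7 TPM with mAb, against 27.0, 20.93 and 27.4 TPM with IgG (log2 fold change -0.54, SE 0.19, limma adjusted p = 1). Mrpl47, a protein of the mitochondrial ribosome, was at 13, 16.0, 13.1, 19.1 and 18.2 TPM with mAb, against 27.6, 21.4 and 20.3 TPM with IgG. Sdhd, a subunit of succinate dehydrogenase, was at 153, 160, 171, 110 and 146 TPM with mAb, against 199, 172 and 178 TPM with IgG. The differences were under 2-fold in all 12. Mrps24 (mitochondrial ribosome), Malsu1 (its assembly) and Fdx1 (mitochondrial ferredoxin) had log2 fold changes of -0.29, -0.40 and -0.36. Ddt, a relative of the cytokine MIF, had -0.36, Cutc, of copper metabolism, -0.40, Ifi27, an interferon-inducible gene, -0.36, and Ccdc107, Zfp511 and Snapc2 -0.41, -0.35 and -0.33. The 13 genes of the mitochondrial genome overlapped between the groups: their mean log2(TPM + 1) was 11.8, 11.7, 11.6, 11.2 and 10.8 with mAb, against 11.6, 11.4 and 11.4 with IgG.

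The gene with the smallest p of all was 2210013O21Rik, a gene of the X chromosome with no role given here. It was at 25.4, 28.1, 25.4, 25.7 and 34.9 TPM with mAb, against 112, 99.3 and 29.5 TPM with IgG (log2 fold change -1.29, SE 0.34, limma adjusted p = 1). IgG mouse ID_1529 was within the mAb mice, and without it the log2 fold change was -1.89 with a limma adjusted p = 0.0210 in the fit of all groups. In the syngeneic mice alone without that mouse no gene was called (smallest limma adjusted p = 0.0505).

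The muscle genes Ankrd2, Csrp3 and Hspb7 were chosen after their values were seen, from the 115 genes at an unadjusted p under 0.05, and do not stand for a tested group. Ankrd2 (chromosome 19, 42036038 to 42045110), an ankyrin repeat protein that muscle makes on stretch, was at 23.3, 12.3, 13.5, 3.92 and 5.26 TPM with mAb, against 77.4, 18.0 and 60.8 TPM with IgG. Its log2 fold change was -2.07 (SE 0.55, limma adjusted p = 1). Csrp3 (chromosome 7, 48830398 to 48848033), a LIM protein of the Z-disc, was at 156, 163, 169, 37.1 and 44.4 TPM with mAb, against 558, 153 and 294 TPM with IgG (log2 fold change -1.64, SE 0.59). Hspb7 (chromosome 4, 141420779 to 141425311), a small heat shock protein of muscle, was at 69.6, 63.2, 63.3, 20.5 and 20.3 TPM with mAb, against 181, 64.0 and 108 TPM with IgG (log2 fold change -1.37, SE 0.45). In all 3 genes IgG mice ID_1527 and ID_1529 were above every mAb mouse and IgG mouse ID_1528 was among them.

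Abundant muscle genes differed less between mice ID_1530 to ID_1532 and the IgG mice. Acta1, skeletal actin, was at 8157, 6520, 7728, 2022 and 2619 TPM with mAb, against 9009, 5627 and 8485 TPM with IgG. Ckm, muscle creatine kinase, was at 4927, 3616, 4626, 1107 and 1520 TPM with mAb, against 5018, 3131 and 4759 TPM with IgG. The muscle list had 18 of 19 genes with a log2 fold change below 0 and a median of -0.65, with no gene called and none at an unadjusted p under 0.05. Its median was 0.05 without mice ID_1533 and ID_1534, while Ankrd2, Csrp3 and Hspb7 were at -1.43, -0.85 and -0.72 without them (limma adjusted p = 1 for each). The part of the muscle transcripts in the values of these 3 genes was not tested.

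**Figure D4:**
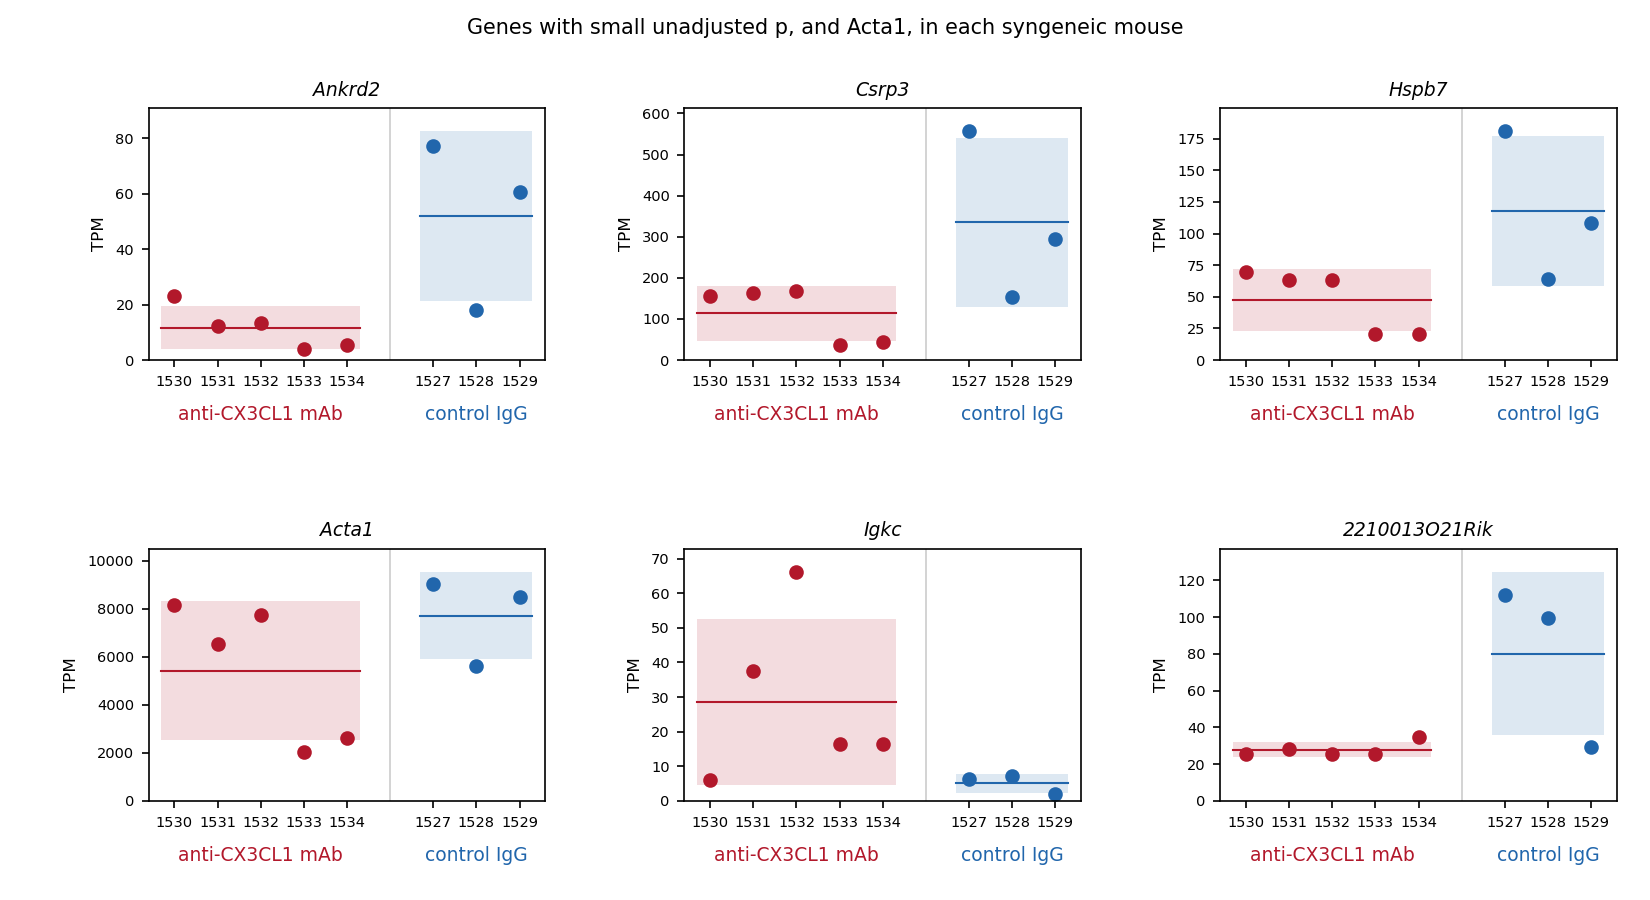
TPM of Ankrd2, Csrp3, Hspb7, Acta1, Igkc and 2210013O21Rik in each syngeneic mouse (points), with the group mean (line) and 1 SD on either side (shading, drawn down to 0 at most), mAb on the left and control IgG on the right. Ankrd2 averaged 11.7 TPM with mAb and 52.1 TPM with IgG, and in all 6 genes at least 1 mouse of one group lies within the range of the other.

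With the mean level of the hair shaft and sheath genes of each mouse as a covariate, genes were called. In the 8 syngeneic mice these were 31 (0.19%: 14 higher, 0.0856%, and 17 lower, 0.104%), in all 19 mice 59 (0.361%: 54 higher, 0.33%, and 5 lower, 0.0306%), and 15 genes were called in both fits. Of those 15, Ankrd2 had a log2 fold change of -2.02 (limma adjusted p = 0.0364 in 8 mice and 0.0406 in 19) and Hspb7 one of -1.32 (limma adjusted p = 0.00498 in 8 mice and 0.0462 in 19). Csrp3 was called in the 8 mice (-1.57, limma adjusted p = 0.00399) and not in the 19 (limma adjusted p = 0.170). The fit of 8 mice also called 10 other genes of muscle or its Z-disc lower (Actn2, Fhl1, Klhl41, Ldb3, Lmcd1, Myh1, Myh2, Myot, Nrap and Synpo2, with log2 fold changes of -0.89 to -0.62), and none of these was called in the 19. On the covariate the mAb mice lay at both ends (0.42 to 0.46, and 9.14 and 8.36), with the IgG mice between (1.47, 5.76 and 3.32). The fit takes a straight line over it, so a curved relation and a group difference cannot be told apart for any gene. These muscle calls are therefore a description only. Among the rest of the 15 were the sheath keratins Krt25 (-2.36), Krt27 (-1.77) and Krt71 (-2.34), which are part of the covariate, and 6 keratin-associated proteins with log2 fold changes above 0, among them Krtap16-3 (1.33) and Krtap19-3 (1.63). Since the covariate is the mean of shaft and sheath genes, adjusted values of hair genes balance around it by construction, and the calls of these keratins and keratin-associated proteins are a description only. Without mice ID_1533 and ID_1534, 3 genes were called (0.0183%), Krt25 (-6.62), Krt27 and Krt71 (-6.74), all lower with mAb (limma adjusted p = 0.00487 for Krt25). Those 2 mice were left out for their hair transcripts, so the call of these genes follows from the choice of mice and is a description only. In the 6 syngeneic mice alone without those 2, 1 gene was called (0.00612%), Gcom1, higher with mAb.

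Markers of macrophages, the cells that follow CX3CL1, gave no call. Adgre1, which encodes F4/80, was at 20.97, 25.6, 16.9, 13.1 and 12.6 TPM with mAb, against 20.2, 21.7 and 16.5 TPM with IgG. C1qa, a complement gene of tissue macrophages, was at 340, 368, 335, 212 and 303 TPM with mAb, against 309, 396 and 419 TPM with IgG. Of the macrophage list 18 of 22 genes had a log2 fold change below 0 with a median of -0.21, beside 52.5% of all genes below 0 and a median of -0.01. The list was lowest in mice ID_1533 and ID_1534 (mean log2(TPM + 1) of 4.40 and 4.52, against 4.96 to 5.07 in the other mAb mice and 4.80 to 5.17 with IgG), and without these 2 mice its median was 0.04. The monocyte list behaved likewise, with a median of -0.16 with all mice and 0.09 without the 2.

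Lymphocyte genes gave no call. Cd3e, a signalling subunit of the T cell receptor complex, was at 7.61, 5.65, 5.95, 2.65 and 5.60 TPM with mAb, against 4.76, 4.88 and 3.69 TPM with IgG, and over the 21 genes of the T cell list the log2 fold change had a median of 0.02. Igkc, the kappa light chain constant region (chromosome 6, 70726435 to 70726966), was at 6.20, 37.4, 66.1, 16.5 and 16.6 TPM with mAb, against 6.32, 7.11 and 1.89 TPM with IgG. It was the one list member among all lists with an unadjusted p under 0.05 (log2 fold change 2.02, SE 0.92, limma adjusted p = 1), and mouse ID_1530 lay within the IgG mice. The B cell receptor genes Cd79a and Cd79b were at 7.27 and 8.02 TPM in mAb mouse ID_1532, against at most 0.23 and 1.20 TPM in the other mAb mice and 0.23 and 0.68 TPM with IgG. Ighm, the heavy chain of IgM, was at 31.3 to 80.1 TPM with mAb and 38.9 to 54.6 TPM with IgG. In these genes mouse ID_1532 stood highest.

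Fibrosis genes, a main readout of the Scl-cGVHD model, gave no call. Col1a1 was at 2082, 2081, 1311, 653 and 942 TPM with mAb, against 2037, 1360 and 1028 TPM with IgG, a log2 fold change of -0.14 (SE 1.09). Col1a2 was at 2657, 2731, 1898, 819 and 1148 TPM with mAb, against 2639, 1793 and 1480 TPM with IgG. Both these collagen genes were lowest in mice ID_1533 and ID_1534, but others of the list of 19 were not. Col3a1 was lowest in IgG mouse ID_1529 (1040 TPM, against 1118 and 1064 TPM in ID_1533 and ID_1534). Col18a1 was highest in ID_1533 and ID_1534, at 82.3 and 62.5 TPM. The list averaged 6.73, 6.57, 6.26, 6.29 and 6.46 with mAb (log2(TPM + 1)), against 6.56, 6.72 and 6.31 with IgG. Acta2, which encodes alpha-smooth muscle actin, was at 231, 238, 181, 216 and 239 TPM with mAb, against 203, 192 and 215 TPM with IgG. Tgfb1 was at 31.1 ± 3.18 TPM with mAb and 31.9 ± 4.80 TPM with IgG, Fn1 (fibronectin) at 126 ± 40.3 TPM and 122 ± 18.0 TPM, and Spp1 (osteopontin) at 9.06 ± 1.16 TPM and 10.7 ± 1.59 TPM in the same order (SD, n = 5 and 3). Vdr, the vitamin D receptor, which the hair cycle needs, was at 44.7, 40.8, 37.5, 109 and 75.8 TPM with mAb, against 33.9, 60.7 and 37.0 TPM with IgG, and followed the hair genes. Hmgb1, an alarmin, was at 437 ± 53.0 TPM with mAb and 436 ± 70.9 TPM with IgG (SD, n = 5 and 3). Of 17 genes taken from the genes and proteins that the study names, 15 were tested, with a median log2 fold change of 0.00 (-0.002011), and none had an unadjusted p under 0.05.

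Genes of the structural cells of the dermis were lowest in mice ID_1533 and ID_1534. The fibroblast list had 16 of 18 genes with a log2 fold change below 0 (median -0.29), the endothelial list 17 of 19 (median -0.24, with 3 genes below every IgG mouse, where 1.05% of all genes were) and the adipocyte list 16 of 16 (median -0.33). Mean log2(TPM + 1) of the fibroblast list was 6.93, 6.77, 6.73, 5.86 and 6.20 with mAb, against 6.75, 6.78 and 6.72 with IgG. That of the adipocyte list was 7.75, 7.65, 7.72, 6.96 and 7.01 with mAb, against 7.57, 7.88 and 7.82 with IgG. In both lists mice ID_1533 and ID_1534 were alone below the IgG mice, and without them the medians were 0.08 (fibroblast), -0.05 (endothelial) and -0.06 (adipocyte). Interferon-induced genes had 23 of 25 below 0 with a median of -0.14, and of -0.08 without mice ID_1533 and ID_1534. Those 2 mice differed here, with list means of 3.25 and 4.01 (log2(TPM + 1)), against 3.63 to 3.96 in the other mAb mice and 3.57 to 4.34 with IgG. Isg15, a ubiquitin-like protein of this response, was at 31.2, 41.4, 30.2, 48.3 and 127 TPM with mAb, against 34.2, 92.8 and 38.6 TPM with IgG, so that 1 mouse in each group stood high. The mean over 15 housekeeping genes was 7.96 to 8.06 with mAb and 7.97 to 8.10 with IgG, but single members varied, with Gapdh, of glycolysis, at 1042 to 2488 TPM with mAb and 1780 to 2802 TPM with IgG, lowest in mouse ID_1533.

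**Figure D5:**
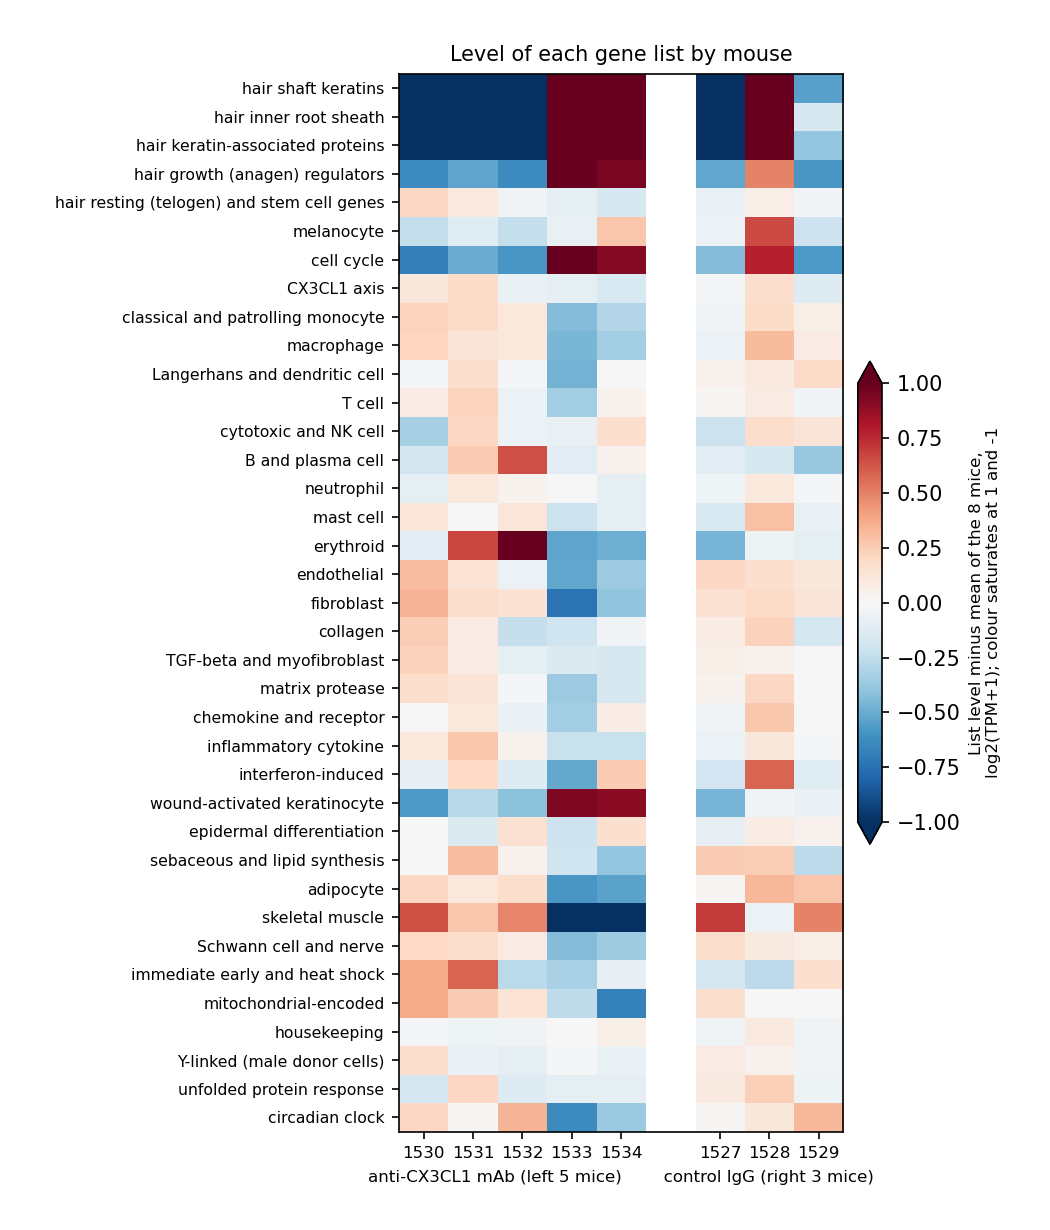
Level of each gene list (mean log2(TPM + 1) over its genes) in each syngeneic mouse, as the difference from the mean of the 8 mice, with mAb mice on the left and control IgG mice on the right. Colour saturates at differences of 1 and -1. Mice ID_1533 and ID_1534 stood apart from mAb mice ID_1530 to ID_1532 in the hair shaft, sheath, keratin-associated, hair growth, cell cycle and muscle lists. They also stood high in the wound-activated keratinocyte list (levels of 4.52 and 4.49, against 3.01 to 3.30 in the other mAb mice). IgG mouse ID_1528 stood apart from the other IgG mice in the same hair lists and the cell cycle list. The list of resting and stem cell genes did not set these mice apart in this way.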

How the data were processed

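Skin of 8 syngeneic mice (mAb n = 5, control IgG n = 3) was taken from a series of 19. Per the labels and the methods of the study, the authors made stranded mRNA libraries, sequenced paired reads, trimmed them with Trimmomatic, aligned them to GRCm38 (Ensembl annotation) with STAR 2.5.2b, and estimated levels with RSEM 1.2.31. The deposited values are TPM with 2 decimals, so a few abundant transcripts in a mouse lower all its other values. The deposited read numbers give no mouse and were not used here. The analysis planned for counts was not run, since the values are TPM.

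The log2 of TPM + 1 entered limma 3.58.1 under R 4.3.3 (variance trend, robust prior). All 19 mice stood in 1 fit with a mean per group, and p values are two-sided with Benjamini-Hochberg adjustment over 16350 genes. The SEs, intervals and p values of this fit therefore also carry the spread of the Scl-cGVHD mice. A fold change on this scale understates that of low genes. Axis genes also had an exact permutation test. The procedure was tested on simulated data, in which the spread of a gene was held at or below the median of the real genes. Mice within a group were not split there, so the simulation does not cover the spread of these mAb mice.

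The members and lists were chosen with earlier results of these data known. Genes named are those of the CX3CL1 axis and of the study, the 12 per direction with the smallest p among genes that average 5 TPM or more and separate the groups (numbered models, receptor segments and keratin-associated proteins passed over), up to 3 per list with the smallest p, and 4 per hair list by level. Ankrd2, Csrp3, Hspb7, Thrsp, Gcom1, 2210013O21Rik and list members outside this rule were chosen after their values were seen. One gene that the rule names is not reported here. Lists were written from textbook knowledge and had no set test. Promoters are from RefSeq. Alternatives were other scalings, pseudocounts, filters and variance models, syngeneic mice alone, the hair level as a covariate, and mice left out.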

Additional observations from a re-analysis of the deposited data

Results flagged for a closer look

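In the 5 mAb mice, 12 of 124 values checked (38 list levels and 86 single genes) had 1 mouse far from the rest by Dixon's test, which chance alone gives in about 1 of 20 groups. Groups of 3 IgG mice were not checked. Mouse ID_1532 stood high for Cd79a (7.27 TPM, next 0.23) and Cd79b (8.02 TPM, next 1.20), both parts of the B cell receptor. Mouse ID_1533 stood low for the Langerhans and dendritic cell list (mean log2(TPM + 1) of 4.17, next 4.63). It stood high for 4 genes that were picked for lying above the IgG mice: Lypd5 (282 TPM, next 201), Arhgef4 (23.5 TPM, next 16.0), Slc15a1 (20.5 TPM, next 11.4) and Gpsm1 (33.5 TPM, next 21.6). Mouse ID_1534 stood high for Isg15 (127 TPM, next 48.3), Itgav (33.5 TPM, next 24.3) and 2210013O21Rik (34.9 TPM, next 28.1). Mouse ID_1530 stood high for the Y-linked list (1.62, next 1.43) and mouse ID_1531 for the unfolded protein response list (6.21, next 5.92).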

How the results depend on the processing

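The count of called genes was 0 with all 19 mice and stayed 0 with the syngeneic mice alone, with median-ratio, trimmed-mean and quantile scaling, a pseudocount of 0.1, a filter of 5 TPM, no variance trend, and array weights. Without a filter it was 2 (smallest limma adjusted p = 3.7e-10). That fit also holds genes below the filter of 1 TPM, and the 2 genes are not named here. The count was 31 with the hair level as a covariate in 8 mice and 59 with it in 19 mice. It was 3 without mice ID_1533 and ID_1534, and 1 without them in syngeneic mice alone (Gcom1). Without mice ID_1528, ID_1533 and ID_1534, an alternative chosen after seeing the data, it was 5 in either fit. With each mouse left out in turn it was 0 to 1, the 1 being 2210013O21Rik without IgG mouse ID_1529. With each mouse left out of the syngeneic mice alone, also chosen after seeing the data, it was 0 to 1. Counts at an unadjusted p under 0.05 were 65 to 207 with each mouse left out, 50 with a filter of 5 TPM, 191 in syngeneic mice alone, 625 with array weights, 792 without a filter, 1339 and 418 with the hair covariate in 8 and 19 mice, 297 without mice ID_1533 and ID_1534 (751 in syngeneic mice alone), and 220 without mice ID_1528, ID_1533 and ID_1534 (914 in syngeneic mice alone), against 115. Where these counts differ, the cause was not tested. For the response to 1 mg of mAb in Scl-cGVHD mice minus that in syngeneic mice, the count of called genes was 0 under each alternative run for it. Of 190 named genes, 60 had a log2 fold change of the other sign without mice ID_1533 and ID_1534. No paired analysis was possible because the mouse numbers are not shared between the groups. With 3 IgG mice and a wide spread in the mAb mice, a difference of 1 on log2(TPM + 1) in either direction lay outside the 95% interval for 12671 of 16350 genes. It did not for the rest. For low genes a 2-fold change in TPM is less than 1 on this scale, so that count does not exclude it.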

Other observations

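Thrsp, a regulator of lipid synthesis in fat and sebaceous cells, was at 117, 151, 138, 25.1 and 61.4 TPM with mAb, against 366, 207 and 246 TPM with IgG, so that every mAb mouse lay below every IgG mouse. Its log2 fold change was -1.67 (SE 1.10, limma adjusted p = 1), and with the hair level as a covariate it was -1.62, called in the 8 mice (limma adjusted p = 0.0157) and not in the 19 (limma adjusted p = 1). The call of Thrsp with this covariate is a description only. Leptin (Lep), the hormone of fat cells, was at 16.1, 17.8, 14.6, 11.9 and 16.7 TPM with mAb, against 14.3, 41.0 and 22.6 TPM with IgG, and Adipoq (adiponectin) at 175 to 356 TPM with mAb and 296 to 372 TPM with IgG. The groups overlapped in both.

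Gcom1 was at 2.40, 2.83, 3.13 and 6.31 TPM in mAb mice ID_1530 to ID_1533 and listed at 0 in mAb mouse ID_1534, against a listed 0 in all 3 IgG mice (limma adjusted p = 1).

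Hbb-bs, a beta-globin gene, was at 324, 558, 808, 221 and 180 TPM with mAb, against 250, 337 and 270 TPM with IgG, with mouse ID_1532, which was also highest for Cd79a and Cd79b, the highest.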
